A study of Mus musculus with 50 samples.

Results

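Thyroids collected 15 hours after blockade of 2 Notch ligands, Jag1 and Jag2, by antibodies (aJ1aJ2) were compared with thyroids collected 15 hours after an isotype control antibody (RW). The 10 libraries, 5 in each group, were chosen by their titles from the 50 of the series, and the early difference was described over all genes. The series measured gene expression by RNA sequencing in mouse thyroid at 15 hours, 5 days or 7 days after antibodies that block Notch ligands or Notch receptors. All mice were male C57BL/6 animals without a named genetic alteration, aged 10 to 12 weeks in the series description and 10 to 14 weeks in the sample labels. Every mouse received 1 intraperitoneal injection. RW mice received an antibody against ragweed, a plant pollen, at 40 mg/kg. The aJ1aJ2 mice received an antibody against Jag1 and an antibody against Jag2 at 20 mg/kg each. A group given antibodies against the receptors Notch1 at 5 mg/kg and Notch2 at 10 mg/kg (aN1aN2), also with 5 libraries at 15 hours, entered the model so that all 15 libraries shared one estimate of the spread. Thyroid hormone injections are described for the series from day 2 on, later than this collection. The labels do not say that each library came from a separate animal, so the p-values measure the spread between libraries, which may be technical.

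Notch receptors are cell-surface proteins that are cut when a ligand on a neighbouring cell, such as Jag1, Jag2 or Dll4, binds them. The freed intracellular part joins the DNA-binding protein RBPJ and switches on genes such as Hes1, Hey1, Heyl and Nrarp. Notch3 is found mainly in mural cells, the pericytes and smooth muscle cells around blood vessels, where Jag1 from the endothelium is a known ligand and Notch3 is itself a target of the pathway.

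Total counts ran from 25.2 M to 35.8 M in the RW libraries and from 23.1 M to 37.6 M in the aJ1aJ2 libraries. The tissue matched its label, since thyroglobulin (Tg), the precursor of thyroid hormone, took between 14.5% and 33.2% of the counts in RW and between 14.5% and 34.9% in aJ1aJ2. Genes of neighbouring tissues varied widely between libraries of the same group. Summed skeletal muscle genes took 4.29% and 5.54% of the counts in RW replicates 2 and 5 and 5.28% in aJ1aJ2 replicate 3, and under 1% in each of the other 7 libraries. Cartilage genes summed to 169 and 175 CPM (counts relative to the library total, here without TMM scaling) in RW replicates 2 and 5 and to at most 8.51 CPM elsewhere. Airway and oesophageal genes were highest in RW replicates 5 (7180 CPM) and 3 (1227 CPM). Values without the libraries of any 15-hour group with over 2% muscle counts (6 libraries, including these 3) are given beside the results they touch.

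**Figure D1:**
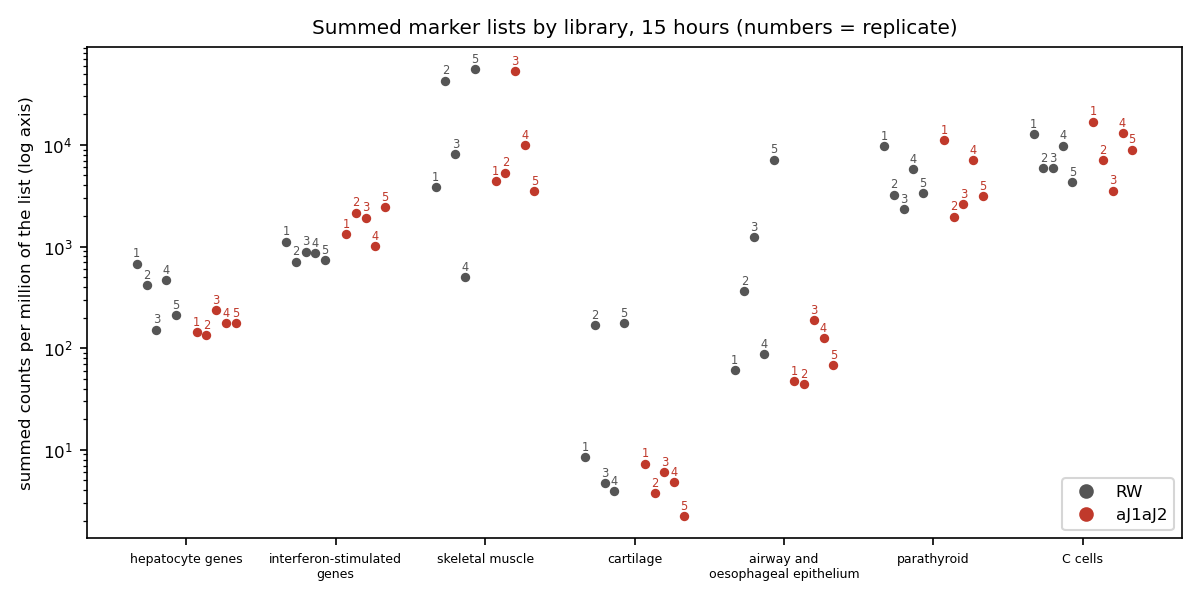
Summed CPM (log axis, not rescaled) of 7 marker lists in each RW (grey) and aJ1aJ2 (red) library at 15 hours, each point 1 library with its replicate number. Muscle sums are high in RW 2, RW 5 and aJ1aJ2 3, and cartilage sums in RW 2 and RW 5, while the interferon sums of aJ1aJ2 lie between 1003 and 2438 against 710 to 1119 in RW.

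Across the 18513 genes tested, 106 (0.573%) differed between aJ1aJ2 and RW at an adjusted p below 0.05. Of these, 64 were higher (0.346% of genes tested) and 42 lower (0.227%). The higher genes included 30 of a list of interferon-stimulated genes, and the lower genes included 20 of a list of hepatocyte genes and 4 of a list of mural cell genes. A total of 55 of the higher and 41 of the lower genes differed at least 2-fold. Values (CPM on the TMM-scaled library size) did not overlap between the 5 and 5 libraries for 57 of the higher and 42 of the lower genes, against 320 genes of all tested (1.73%, of which 0.956% higher and 0.772% lower). The 106 were chosen by a test on these libraries, so this separation follows largely from the choice. The median log2 fold change over all genes tested was −0.03. An unadjusted p below 0.05 was reached by 1220 genes. The smallest adjusted p was 0.00683. The number of genes past the threshold was 35 without RW replicate 2, 36 without RW replicate 4, 64 without RW replicate 3 or without aJ1aJ2 replicate 3, 55 without aJ1aJ2 replicate 2 and 53 without aJ1aJ2 replicate 5. It was 9 without the 6 libraries rich in muscle counts, namely Ccl7 and Serpina3n (higher) and Rgs5, Vtn, Apoa2, Cps1, Fgb, Serpina1b and Slco1b2 (lower), of which 6 are among the 106. All 106 had the same direction in that smaller set, with a median log2 fold change of 1.41 for the higher and −3.64 for the lower genes, against 1.50 and −3.43 with all libraries. That set is part of the libraries that chose the 106, so the shared direction is no independent check. It also holds fewer libraries. A fit of all libraries with the summed muscle level as a covariate gave 144 genes, among them all 106.

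**Figure D2:**
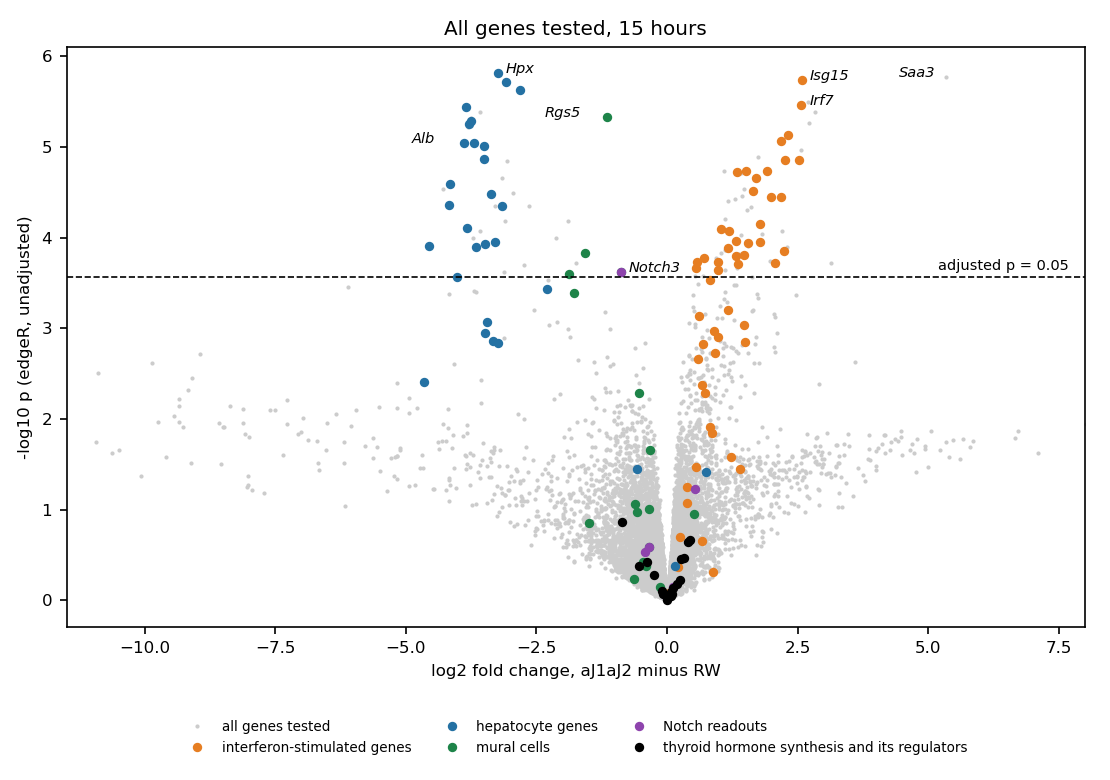
Log2 fold change of aJ1aJ2 against RW (x axis) and −log10 of the unadjusted p from edgeR (y axis) for every gene tested at 15 hours, with 5 gene lists in colour and the adjusted threshold dashed. Interferon-stimulated genes lie at the upper right, hepatocyte genes at the upper left, Rgs5 and Notch3 between them, and thyroid genes near the bottom.

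Interferon-stimulated genes are switched on when interferons, secreted antiviral cytokines, activate transcription factors that include STAT2 and IRF9. Of 56 such genes listed, 54 were tested, and 30 of them rose while none fell, against 0.346% of all genes tested. All 54 had a log2 fold change above 0, with a median of 1.18, whereas 43.9% of all genes tested were above 0. The 2 entries without a test were Ifi44l, below the count filter, and Rigi, which the table lists under its older symbol Ddx58. In the 9 libraries left without the muscle-rich ones, 53 of the 54 were above 0, with a median of 1.07, and none passed the threshold. The 30 were 9 without RW replicate 2 or 4, 14 and 15 without RW replicates 3 and 5, and 13 without aJ1aJ2 replicate 2, 3 or 5. They were 5 when the fit held the RW and aJ1aJ2 libraries alone, without aN1aN2, 9 with limma-voom and 3 on log2(FPKM + 1), where FPKM are the deposited values scaled by depth and gene length, with all 54 above 0 in each of these. Limma-voom with library quality weights gave 15, DESeq2 40 and the fit with a muscle covariate 35. Changes in bulk tissue can come from more or fewer cells of a type or from more or less RNA per cell, which cannot be told apart here.

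Isg15 (ENSMUSG00000035692), a ubiquitin-like protein attached to other proteins after interferon, stood at 4.31, 1.85, 3.91, 2.32 and 3.36 CPM in RW replicates 1 to 5 (the order used throughout) and at 13.1, 22.3, 20.8, 8.14 and 30.3 CPM in aJ1aJ2. Every aJ1aJ2 library was above every RW library, with aJ1aJ2 replicate 4 the lowest of its group. Its log2 fold change was 2.58 (SE 0.33, adjusted p = 0.00683), a 6.00-fold higher mean. Irf7 (ENSMUSG00000025498), the transcription factor that amplifies type I interferon production, stood at 11.2, 7.94, 9.56, 8.91 and 9.54 CPM in RW and 33.2, 80.6, 49.0, 18.8 and 99.4 CPM in aJ1aJ2. The groups did not overlap, and the log2 fold change was 2.57 (SE 0.35, adjusted p = 0.00683). Its exons overlap those of Phrf1 on the other strand, and the use of strand in counting is not given in the sources used here. Ifit1 (ENSMUSG00000034459), which binds viral RNA, stood at 4.88, 3.82, 5.00, 3.83 and 6.73 CPM in RW and 16.9, 32.4, 48.0, 7.86 and 35.8 CPM in aJ1aJ2, without overlap and with a log2 fold change of 2.54 (SE 0.39, adjusted p = 0.00952). Bst2 (ENSMUSG00000046718), or tetherin, which holds budding viruses at the cell surface, stood at 23.4, 12.7, 17.3, 15.5 and 16.0 CPM in RW and 38.9, 65.3, 48.4, 27.6 and 97.5 CPM in aJ1aJ2. Every aJ1aJ2 library lay above the RW range, with a log2 fold change of 1.71 (SE 0.28, adjusted p = 0.0116).

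The rise covered sensors, effectors and signalling genes. The oligoadenylate synthetase family, whose members sense double-stranded RNA, included Oas3 at 2.33 (adjusted p = 0.00804), Oasl2 at 2.19 (adjusted p = 0.00847), Oasl1 at 2.07 (adjusted p = 0.0388) and Oas2 at 1.52 (adjusted p = 0.0108), each value a log2 fold change. Among GTPases that act on intracellular microbes, Gbp3 rose by 1.78 (adjusted p = 0.0232), Gbp5 by 1.77 (adjusted p = 0.0303), Igtp by 1.56 (adjusted p = 0.0307) and Irgm1 by 0.72 (adjusted p = 0.0360). The signalling gene Stat2 rose by 0.98 (adjusted p = 0.0388), while Irf9 had a log2 fold change of 0.68 (adjusted p = 0.165) and Irf1 one of 0.04 (adjusted p = 1.000). Usp18, an inhibitor of the pathway that removes Isg15 from proteins, rose by 1.99 (adjusted p = 0.0151). The 30 genes that rose had log2 fold changes from 0.56 (Parp9) to 2.58 (Isg15), and 25 of them did not overlap between groups. The aJ1aJ2 value was lowest in replicate 4 for 29 of the 30, and the RW value was highest in replicate 1 for 19 of the 30. Reads of near-identical copies, such as Ifit3 and Ifit3b or the Gbp and Oas families, could be split between them by the counting. Exons of 17 of the 64 higher genes, Igtp and Usp18 among them, overlap those of another gene.

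Transcripts of the interferon genes on the list were at or near 0, and other interferon genes were not checked. Ifnb1, Ifna1, Ifna4, Ifnl2 and Ifnl3 had 0 counts in all 10 libraries, which allows up to 0.0196 CPM in RW and 0.0206 CPM in aJ1aJ2 from a count of 0 (3 counts over the group, counting error only). Ifng had 1 count in RW and 3 counts in aJ1aJ2. Receptor chains and their kinases were expressed and did not pass the threshold. The log2 fold change was 0.16 for Ifnar1 (95% interval −0.14 to 0.45), 0.07 for Ifnar2 (95% interval −0.36 to 0.50) and 0.05 for Jak1 (95% interval −0.18 to 0.28).

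The stretches of promoter printed here show the letters that many of the higher genes share just before their start sites. They are the 150 bases before the start site from RefSeq on build GRCm38.p6, 5′ to 3′ along the gene. They cover 3 of the interferon-stimulated genes above, all with a match, and Saa3, the gene with the largest rise among those past the threshold. They also cover Rgs5, the mural cell gene with the smallest p. Capitals mark matches of the core of the interferon-stimulated response element, GAAA followed after any 2 bases by another GAAA, on either strand (matches can overlap each other), and in Isg15 also 1 match of the RBPJ core GTGGGAA, on the opposite strand.
Isg15 (chr4:156200819-156200968, minus strand): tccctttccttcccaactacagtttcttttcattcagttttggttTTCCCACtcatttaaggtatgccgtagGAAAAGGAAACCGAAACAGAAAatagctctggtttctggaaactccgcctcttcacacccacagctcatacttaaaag
Ifit1 (chr19:34640739-34640888, plus strand): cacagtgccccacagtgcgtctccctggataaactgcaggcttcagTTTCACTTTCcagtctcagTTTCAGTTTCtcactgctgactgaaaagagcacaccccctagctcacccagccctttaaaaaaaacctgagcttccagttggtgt
Bst2 (chr8:71537473-71537622, minus strand): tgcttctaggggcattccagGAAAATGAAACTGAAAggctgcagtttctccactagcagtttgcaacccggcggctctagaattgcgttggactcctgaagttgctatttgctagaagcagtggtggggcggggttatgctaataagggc
Saa3 (chr7:46715677-46715826, minus strand): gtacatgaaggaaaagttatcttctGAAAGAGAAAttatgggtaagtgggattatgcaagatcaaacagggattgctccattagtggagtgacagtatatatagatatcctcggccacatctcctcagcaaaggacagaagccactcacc
Rgs5 (chr1:169655351-169655500, plus strand): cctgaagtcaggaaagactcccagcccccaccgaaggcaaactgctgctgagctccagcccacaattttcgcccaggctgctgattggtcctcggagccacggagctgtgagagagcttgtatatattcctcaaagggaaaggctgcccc
A search of the 250 bases before the start site found this paired GAAA core in 22 of the 45 higher genes with a RefSeq promoter (48.9%; 64 genes in all), in 1 of 33 lower genes (3.03%; 42 in all) and in 408 of the 12596 genes tested that had one (3.24%). Among the interferon-stimulated genes that rose it was in 13 of 21 (61.9%), and among the other higher genes in 9 of 24 (37.5%). Isg15 held 3 overlapping matches, Ifit1 2, Bst2 2 and Saa3 1 in the stretch shown, and Rgs5 none. The same stretch of Irf7, also given by library above, held none and is not printed. GTGGGAA was in 1 of 45 higher genes (2.22%), 2 of 33 lower genes (6.06%) and 824 of 12596 genes tested (6.54%), and in none of the 3 lower mural cell genes with a promoter. A match is a run of letters and no measurement of binding.

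**Figure D3:**
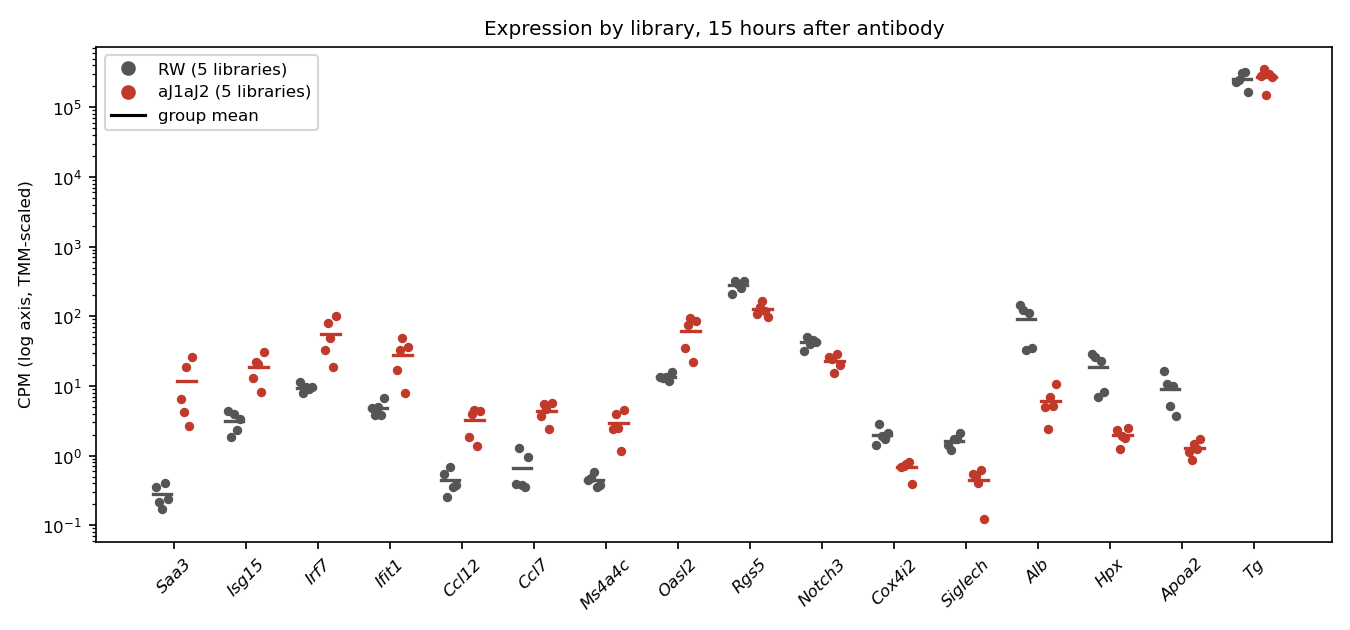
CPM on the TMM-scaled library size (log axis) of 16 genes in each of the 5 RW (grey) and 5 aJ1aJ2 (red) libraries at 15 hours, with bars at the group means. From Saa3 to Oasl2 all aJ1aJ2 points lie above the RW points, from Rgs5 to Apoa2 all lie below, and Tg overlaps.

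Outside the interferon list, 34 genes rose, of which 6 belonged to other lists and 28 to none. Saa3 (ENSMUSG00000040026), the serum amyloid A form made outside the liver in inflamed tissue, stood at 0.357, 0.215, 0.171, 0.405 and 0.240 CPM in RW and 6.46, 4.27, 18.5, 2.66 and 26.0 CPM in aJ1aJ2. The groups were far apart, aJ1aJ2 replicates 3 and 5 were highest, and the mean was 41.7-fold higher, with a log2 fold change of 5.35 (SE 0.68, adjusted p = 0.00683). Reads of Saa3 could be shared with its copies Saa1 and Saa2, which had log2 fold changes of −1.72 (adjusted p = 0.719) and −2.54 (adjusted p = 0.0910). Of 22 acute-phase genes listed, 19 were tested, Saa3 was the 1 that rose and the liver fibrinogen chain Fgg the 1 that fell, against 0.346% of all genes tested that rose and 0.227% that fell. Haptoglobin (Hp) and lipocalin 2 (Lcn2) had log2 fold changes of 1.11 (adjusted p = 0.0642) and 2.46 (adjusted p = 0.0654), with no overlap between groups.

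Of 24 cytokine, chemokine and NF-kappaB target genes listed, 21 were tested and 4 rose, against 0.346% of all genes. The count of 4 was 2 with RW 2, RW 3, RW 4, aJ1aJ2 1 or aJ1aJ2 5 left out, and 1 without the muscle-rich libraries. It was 2 with the RW and aJ1aJ2 libraries alone, with limma-voom or with all 10 groups in 1 fit, and 8 with DESeq2. The list's median log2 fold change was 0.79, and 0.45 without the muscle-rich libraries. Ccl7 (ENSMUSG00000035373), a chemokine that draws monocytes, stood at 0.387, 1.29, 0.377, 0.351 and 0.961 CPM in RW and 3.72, 5.54, 4.72, 2.42 and 5.67 CPM in aJ1aJ2. It did not overlap, with a log2 fold change of 2.72 (SE 0.39, adjusted p = 0.00683), and it passed the threshold also without the muscle-rich libraries (3.55, adjusted p = 0.0177). Ccl12 (ENSMUSG00000035352), a neighbouring monocyte chemokine of mice, stood at 0.536, 0.258, 0.685, 0.351 and 0.378 CPM in RW and 1.82, 4.00, 4.45, 1.36 and 4.38 CPM in aJ1aJ2, again without overlap, with a log2 fold change of 2.84 (SE 0.39, adjusted p = 0.00683). Ccl4 rose by 2.21 (adjusted p = 0.0258) and E-selectin (Sele), the endothelial adhesion molecule for leukocytes, by 1.63 (adjusted p = 0.0478). The intracellular NF-kappaB feedback genes did not pass the threshold. Nfkbia had a log2 fold change of −0.47 (95% interval −1.24 to 0.30) and Tnfaip3 one of −0.26 (95% interval −0.97 to 0.44).

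A total of 28 higher genes belonged to none of the lists, and those named here were singled out after their values were seen. Some of these are known from myeloid cells. Ms4a4c (ENSMUSG00000024675) stood at 0.446, 0.472, 0.582, 0.351 and 0.378 CPM in RW and 2.41, 3.93, 2.52, 1.16 and 4.48 CPM in aJ1aJ2, without overlap, with a log2 fold change of 2.70 (SE 0.37, adjusted p = 0.00683). Ms4a6d rose by 1.74 (adjusted p = 0.00952), the macrophage sialic acid receptor Siglec1 by 1.53 (adjusted p = 0.0177), the high-affinity IgG receptor Fcgr1 by 1.42 (adjusted p = 0.0275) and its signalling chain Fcer1g by 1.03 (adjusted p = 0.0342). Others of the 28, such as Slfn4 (3.14, adjusted p = 0.0388), Slfn1 (2.56, adjusted p = 0.00908), Tgtp1 (1.47, adjusted p = 0.0143), Iigp1 (1.38, adjusted p = 0.0343) and Ifitm3 (1.09, adjusted p = 0.0108), are also known as interferon-inducible. The Ms4a, Slfn and Tgtp genes have close copies that could share reads.

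Markers of macrophages and dendritic cells did not rise with these genes as a list. Of 19 listed and tested, none rose and 1 fell, against 0.346% and 0.227% of all genes tested. A total of 11 were above 0, against 43.9% of all genes, and the median log2 fold change was 0.34. Adgre1, the macrophage antigen F4/80, ranged from 10.1 to 22.2 CPM in RW and from 17.1 to 33.0 CPM in aJ1aJ2, with overlap only through RW replicate 1 (1.02, adjusted p = 0.0851). Csf1r had a log2 fold change of −0.04 (95% interval −0.32 to 0.24) and C1qb one of 0.61 (95% interval 0.24 to 0.99, adjusted p = 0.28). The summed level of the list was 304 to 3792 CPM in RW, with RW replicate 5 highest, and 441 to 527 CPM in aJ1aJ2. The part of cell number in the rise of the genes known from myeloid cells was not tested. Siglech (ENSMUSG00000051504), a marker of plasmacytoid dendritic cells, was the gene of the list that fell, from 1.40, 1.20, 1.71, 1.70 and 2.09 CPM in RW to 0.547, 0.513, 0.404, 0.613 and 0.122 CPM in aJ1aJ2. All aJ1aJ2 values lay below all RW values, with a log2 fold change of −1.89 (SE 0.34, adjusted p = 0.0224). Of 13 neutrophil genes, 7 were tested and none passed the threshold. The log2 fold changes of these 7 ran from −8.01 to 3.07, with a median of 0.52. The summed level of the list was 7.64 to 9687 CPM in RW, where RW replicate 5 alone exceeded 30.7 CPM, and 11.1 to 51.1 CPM in aJ1aJ2. RW replicate 5 also had the highest airway and oesophageal sum (7180 CPM). In no RW library did Lcn2, a member of the neutrophil list, exceed 2.53 CPM on the TMM-scaled library size, or Adgre1 exceed 22.2 CPM. Other members thus made up most of both high sums in RW replicate 5. The sums alone do not show more neutrophils or macrophages in that library, and their source was not tested.

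Of the genes of antigen presentation, 1 passed the threshold. All 18 genes of MHC class I presentation were above 0, against 43.9% of all genes tested, with a median log2 fold change of 0.46 (0.36 without the muscle-rich libraries), and H2-T23, a non-classical class I molecule, was the gene that passed, against 0.346% of all genes tested that rose. It stood at 35.2, 23.2, 23.1, 26.4 and 24.1 CPM in RW and 38.2, 64.7, 38.1, 41.3 and 80.1 CPM in aJ1aJ2, without overlap, and its log2 fold change was 0.99 (SE 0.20, adjusted p = 0.0443). Class I genes have many close copies that could share reads. Tap1, the peptide transporter, had a log2 fold change of 0.66 (adjusted p = 0.276), the immunoproteasome subunit Psmb8 one of 0.78 (adjusted p = 0.129), and B2m one of 0.49 (adjusted p = 0.625). The 11 genes of MHC class II presentation had a median of 0.05, with 7 above 0, and none passed the threshold. The difference between the lists was not tested. H2-Aa had a log2 fold change of −0.02 (95% interval −0.61 to 0.56) and Cd74 one of 0.05 (95% interval −0.58 to 0.67).

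**Figure D4:**
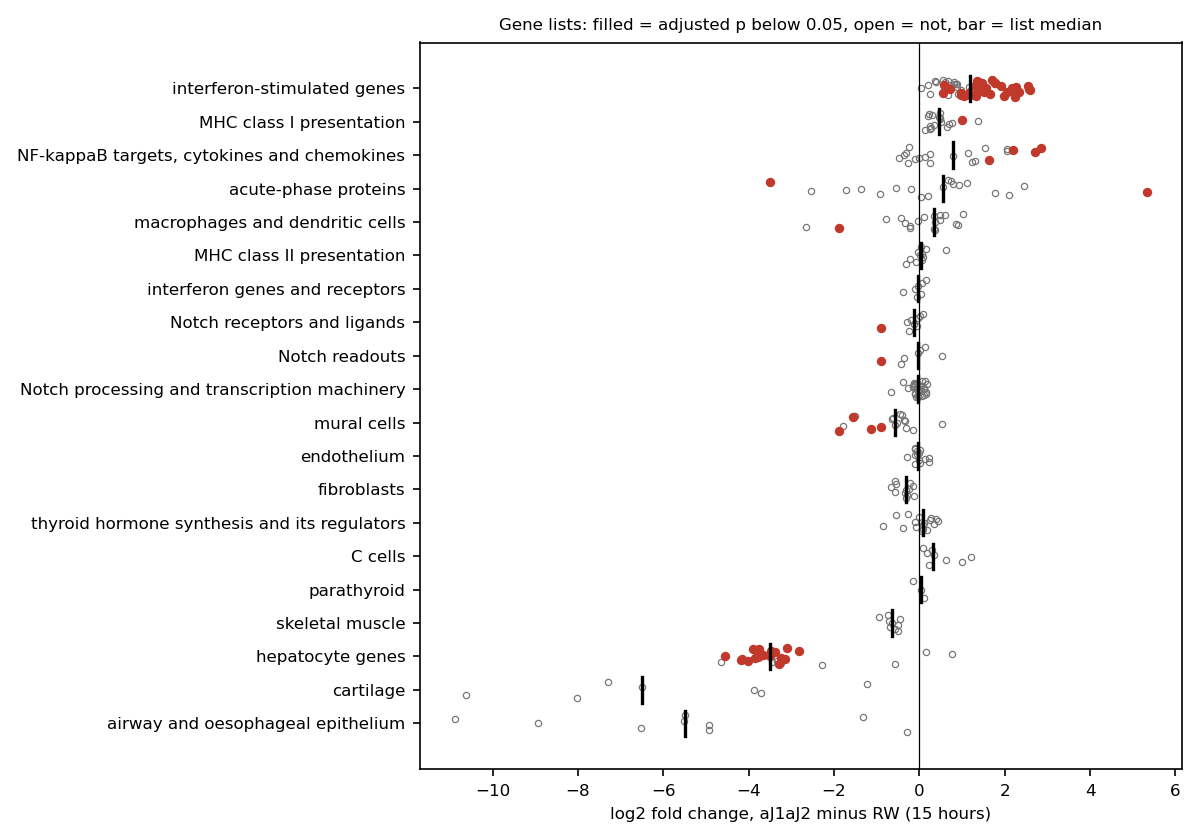
Log2 fold change of aJ1aJ2 against RW at 15 hours (x axis) of each tested gene in 20 lists (y axis), filled red where the adjusted p is below 0.05 and open where it is not, with a bar at the list median. The interferon list lies wholly right of 0 (median 1.18), most hepatocyte genes lie left of −2, the mural list has a median of −0.57, and thyroid genes centre at 0.08.

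Genes of mural cells, foremost the pericyte gene Rgs5, were lower. Of 17 listed and tested, 4 fell (Rgs5, Cox4i2, Notch3 and Vtn) and none rose, against 0.227% of all genes tested that fell. The other 13 did not pass the threshold, 12 of them with a log2 fold change below 0. The list's median was −0.57, and −0.29 without the muscle-rich libraries, where 16 of 17 genes were below 0 and Rgs5 and Vtn passed the threshold. Leaving out 1 library gave 1 gene past it without any of RW replicates 2, 3, 4 and 5 or aJ1aJ2 replicates 1, 2 and 5, and 2 without aJ1aJ2 replicate 3 or aN1aN2 replicate 3. Limma-voom gave 2, and log2(FPKM + 1) gave 1.

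Rgs5 (ENSMUSG00000026678), a regulator of G protein signalling and a main pericyte marker, stood at 207, 319.9, 287, 251 and 317 CPM in RW and 107, 134, 167, 119 and 98.5 CPM in aJ1aJ2. The highest aJ1aJ2 library lay below the lowest RW library. The mean was 2.21-fold lower, with a log2 fold change of −1.14 (SE 0.16, adjusted p = 0.00683). It passed the threshold with any 1 library left out (largest adjusted p = 0.0283) and without the muscle-rich libraries (−1.10, adjusted p = 0.0418). Cox4i2 (ENSMUSG00000009876), a respiratory chain subunit typical of pericytes, stood at 1.40, 2.83, 1.88, 1.75 and 2.13 CPM in RW and 0.693, 0.718, 0.764, 0.817 and 0.390 CPM in aJ1aJ2. It fell without overlap, with a log2 fold change of −1.56 (SE 0.30, adjusted p = 0.0341), and was −1.35 (adjusted p = 0.112) without the muscle-rich libraries.

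Notch3 (ENSMUSG00000038146) stood at 31.2, 50.4, 40.0, 46.3 and 43.4 CPM in RW and 26.2, 24.5, 15.2, 28.3 and 20.0 CPM in aJ1aJ2. The groups did not overlap, and the log2 fold change was −0.89 (SE 0.18, adjusted p = 0.0443). It was −0.64 (adjusted p = 0.160) without the muscle-rich libraries, and it passed the threshold in 3 of 15 fits that left out 1 library. Its exons overlap those of Gm17276 on the other strand. Vtn (ENSMUSG00000017344), vitronectin, is made by pericytes and by liver, and stood at 9.40, 15.4, 7.64, 7.96 and 12.5 CPM in RW and 1.20, 2.43, 5.62, 2.69 and 2.41 CPM in aJ1aJ2, without overlap. Its log2 fold change was −1.88 (SE 0.39, adjusted p = 0.0460), and −1.91 (adjusted p = 0.0418) without the muscle-rich libraries. Liver genes fell in the same libraries, and their part in the value of Vtn was not tested.

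Ndufa4l2, another pericyte gene, stood at 4.79, 8.33, 9.66, 5.02 and 6.35 CPM in RW and 1.64, 1.78, 1.53, 2.59 and 2.31 CPM in aJ1aJ2. Although the groups did not overlap, its log2 fold change of −1.79 missed the threshold (adjusted p = 0.0652). Kcnj8, a pericyte potassium channel, was lower without overlap as well (−0.53, adjusted p = 0.367), while Pdgfrb, the receptor that recruits pericytes, was at −0.32 (adjusted p = 0.667). The smooth muscle genes Acta2 (−1.41 to 0.62), Myh11 (−1.27 to 0.14) and Tagln (−0.92 to 0.65) had wide 95% intervals of the log2 fold change, all of which included 0. Mcam alone in the list was above 0 (0.53, adjusted p = 0.896). The list's summed level, which includes Des, also a skeletal muscle gene, was 2114, 2549 and 2405 CPM in the 3 muscle-rich libraries and 634 to 1410 CPM in the other 7. The 14 endothelial genes centred at −0.02, and none passed the threshold. Pecam1 had a log2 fold change of 0.24 (95% interval −0.02 to 0.50) and Cdh5 one of −0.09 (95% interval −0.42 to 0.24).

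Among Notch receptors and ligands, Notch3 was the 1 of 9 tested genes to pass the threshold (adjusted p = 0.0443). Of all genes tested, 0.227% fell. The other receptors had log2 fold changes of −0.13 for Notch1 (95% interval −0.77 to 0.50), −0.05 for Notch2 (95% interval −0.44 to 0.34) and −0.23 for Notch4 (95% interval −0.76 to 0.29). The genes of the blocked ligands did not pass the threshold, with log2 fold changes of −0.20 for Jag1 (95% interval −0.56 to 0.16) and −0.29 for Jag2 (95% interval −0.70 to 0.13). Dll4, the ligand of arterial and tip endothelium, was at −0.04 (95% interval −0.42 to 0.33) and Dll1 at 0.08 (95% interval −0.18 to 0.33). These are transcripts and do not show how much ligand the antibodies bound.

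The common readouts of Notch activity centred near 0. Apart from Notch3, which the readout list also holds, none of the 7 tested readouts passed the threshold, and Hes5 had 1 count in RW and 2 in aJ1aJ2. Hes1 stood at 42.8, 46.9, 49.8, 46.2 and 42.3 CPM in RW and 50.6, 52.9, 22.0, 44.2 and 62.7 CPM in aJ1aJ2, so that the groups overlapped, with a 95% interval of the log2 fold change of −0.51 to 0.56. Heyl, a mural cell readout, stood at 56.1, 36.4, 70.1, 70.3 and 28.9 CPM in RW and 48.7, 41.4, 24.2, 48.1 and 42.8 CPM in aJ1aJ2 (95% interval −0.99 to 0.29). RW replicates 2 and 5, both muscle-rich, lay within the aJ1aJ2 range or near it, so the groups overlapped. The other RW values of Heyl lay above all its aJ1aJ2 values. Its log2 fold change was −0.35 with all libraries and −0.52 without the muscle-rich ones. Hey1 had a 95% interval of −0.40 to 0.35, Hey2 of −0.02 to 1.08, Nrarp of −1.26 to 0.41 and Dtx1 of −0.57 to 0.81. Changes inside these intervals were not detectable with these libraries. The 28 genes that process Notch or act with it in the nucleus had log2 fold changes from −0.66 to 0.19, with a median of −0.03 and none past the threshold.

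Genes of hepatocytes, the liver cells that make most plasma proteins, were lower in aJ1aJ2. Of 32 listed, among them genes of secreted proteins and of intracellular enzymes, 29 were tested. Of these 29, 20 fell and none rose, against 0.227% of all genes tested that fell. A total of 26 lay without overlap below RW, against 0.772% of all genes tested. The median log2 fold change of the 29 was −3.49, and −3.69 without the muscle-rich libraries, where 4 passed the threshold. The count of 20 was 11 with RW 2, RW 4 or aJ1aJ2 2 left out, and 12 with aJ1aJ2 3 left out, and it was 4 on log2(FPKM + 1). Albumin (Alb, ENSMUSG00000029368), the main plasma protein, stood at 146, 122, 32.5, 113 and 35.1 CPM in RW and 4.96, 2.39, 6.87, 5.21 and 10.8 CPM in aJ1aJ2. Every RW library was higher than every aJ1aJ2 library, and within RW replicates 3 and 5 were low. The mean was 14.9-fold lower, with a log2 fold change of −3.89 (SE 0.57, adjusted p = 0.00847). Hemopexin (Hpx, ENSMUSG00000030895), which binds free heme, stood at 28.5, 26.2, 7.02, 22.8 and 8.20 CPM in RW and 2.30, 1.23, 1.93, 1.80 and 2.48 CPM in aJ1aJ2, with the same 2 RW libraries lowest and a log2 fold change of −3.25 (SE 0.41, adjusted p = 0.00683). Apoa2 (ENSMUSG00000005681), a protein of high-density lipoprotein, stood at 16.6, 10.5, 5.17, 9.88 and 3.64 CPM in RW and 1.13, 0.855, 1.48, 1.26 and 1.75 CPM in aJ1aJ2, without overlap and with a log2 fold change of −2.82 (SE 0.37, adjusted p = 0.00683). RW replicates 3 and 5 were the 2 lowest RW libraries for all 20 genes that fell.

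The lower set was broad in function, with fibrinogen (Fga, −3.69, adjusted p = 0.00847), the carrier proteins Ahsg (−3.09, adjusted p = 0.00683) and Gc (−3.78, adjusted p = 0.00683), the urinary protein Mup11 (−3.85, adjusted p = 0.00683) and the urea cycle enzyme Cps1 (−3.51, adjusted p = 0.00853). Another 17 lower genes belonged to no list, and on inspection after their values were seen all are genes known from liver, for example Hpd (−3.58, adjusted p = 0.00683) and Ces1c (−3.76, adjusted p = 0.00683). The Mup and Serpina1 families have near-identical copies among which reads may have been split, and exons of 9 of the 42 lower genes, Ahsg and Fgg among them, overlap those of another gene. Of the 9 listed genes that were tested and did not pass, Apoc1 (0.15, adjusted p = 1.000), Trf (−0.58, adjusted p = 0.719) and Cyp2e1 (0.76, adjusted p = 0.720) overlapped between groups, and these 3 had the highest mean levels of the list in aJ1aJ2 (118 ± 38.9 CPM for Cyp2e1, mean ± SD, n = 5). The summed level of the list overlapped, at 152 to 680 CPM in RW and 135 to 235 CPM in aJ1aJ2.

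Liver transcripts also varied strongly between other groups of the series, including RW groups. Mean Alb (CPM without TMM scaling, SD, n = 5) was 91.5 ± 57.9 in RW at 15 hours, 608 ± 517 in RW at 7 days and 0.0115 ± 0.0256 in RW at 5 days, where it had 2 counts in all. It was 6.23 ± 3.45 in aJ1aJ2 at 15 hours, 388 ± 218 in aJ1aJ2 at 7 days in the first set and 0.0564 ± 0.0661 in aN1aN2 at 15 hours. The remaining groups had means from 0.294 ± 0.657 (aJ1aJ2 at 5 days) to 7.83 ± 14.3 (aJ1aJ2 at 7 days, second set). RW and aJ1aJ2 at 15 hours and in the first 7-day set, which hold the highest means, share a processing block. The block of the 5-day groups was not checked, so group and block cannot be told apart in these values. The labels name no tissue but thyroid, and the part of liver RNA in these values was not tested. Rgs5, by contrast, ranged over RW groups from 230 ± 49.9 at 7 days to 280 ± 57.7 at 5 days, with 272 ± 26.2 at 15 hours.

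Thyroid genes did not pass the threshold. None of the 17 genes of hormone synthesis and its regulators did, with log2 fold changes from −0.85 to 0.43 and a median of 0.08. Tg stood at 231047, 246756, 307426, 320786 and 164500 CPM in RW and 283265, 349218, 150764, 303636 and 270049 CPM in aJ1aJ2, with RW replicate 5 and aJ1aJ2 replicate 3, both muscle-rich, lowest in their groups. The 95% interval of its log2 fold change was −1.03 to 1.22. Slc5a5, the iodide transporter, had an interval of −1.28 to 0.52, and Tshr, the receptor for thyroid-stimulating hormone, one of −1.03 to 1.17. Pax8, a transcription factor of thyroid follicular cells, had an interval of −0.40 to 1.07. For 11 of the 17 genes the interval reached a 2-fold change in at least 1 direction, and differences inside the intervals were not detectable with these libraries.

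The 15-hour differences were tested against those at 7 days, in the first set of RW and aJ1aJ2 libraries of that time, 5 each, from mice given the same doses. Whether these mice received the thyroid hormone injections is not stated in their labels, so time and hormone cannot be told apart. The difference between the effects passed the threshold for 58 of 18487 genes (0.314%). That count rested on single libraries. It was 100 without aJ1aJ2 15-hour replicate 4 and 146 without RW 7-day replicate 1. It was 6 to 34 without any other library except aJ1aJ2 15-hour replicate 3 (39), RW 15-hour replicate 1 (48) and RW 7-day replicate 4 (73), the lowest being 6 without RW 7-day replicate 2 and 9 without aJ1aJ2 15-hour replicate 5. Among the 64 genes that rose at 15 hours, the difference passed for 27, and the median log2 fold change of the 64 was −0.19 at 7 days against 1.50 at 15 hours. The 64 were chosen by their 15-hour values, which also enter the difference, so both figures lean towards a smaller effect at 7 days. For Isg15 the log2 fold change at 7 days was −0.90, a difference of −3.49 (SE 0.55, adjusted p = 0.0139). For Saa3 it was −1.92, a difference of −7.26 (SE 1.07, adjusted p = 0.0117), and for Irf7 −0.21, a difference of −2.80 (SE 0.47, adjusted p = 0.0231). In the interferon list, the median at 7 days was −0.28, and the difference passed for 18 of 54 genes. All 18 were higher at 15 hours than at 7 days relative to RW. A second set of aJ1aJ2 libraries at 7 days has no RW libraries of its own, so no such test was made there. Its summed interferon list (CPM without TMM scaling, lowest, median and highest of 5) was 808, 1986 and 2191, against 489, 714 and 820 in the first aJ1aJ2 set at 7 days and 1003, 1924 and 2438 in aJ1aJ2 at 15 hours. The median sum in the second set was close to that at 15 hours, but mean Isg15 was 5.06 against 19.4 CPM and mean Irf7 13.1 against 58.0 CPM. Whether the second set shares the processing block of the 15-hour libraries was not checked. The aJ1aJ2 sets at 7 days also differed in other genes, such as Notch3, with a mean of 4.15 CPM in the second and 29.8 CPM in the first. In the second set Isg15 ranged from 3.20 to 7.63 CPM, Irf7 from 6.90 to 19.3 CPM and Saa3 from 0.344 to 18.2 CPM. At 15 hours these ranges in aJ1aJ2 were 8.12 to 33.1, 18.8 to 108.6 and 2.65 to 28.4 CPM.

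Among mural cell genes that fell, no difference between the times passed the threshold. For Rgs5 the log2 fold change was −1.14 at 15 hours and −1.55 at 7 days, a difference of −0.43 (SE 0.24, adjusted p = 0.540). For Cox4i2 it was −1.56 and −1.80 (difference −0.26, SE 0.48, adjusted p = 0.846), and for Notch3 −0.89 and −0.63 (difference 0.22, SE 0.25, adjusted p = 0.741). A missed threshold does not show that the effects were equal. At 5 days (CPM without TMM scaling, mean ± SD, n = 5) Rgs5 was 225 ± 64.9 in aJ1aJ2 against 280 ± 57.7 in RW. Cox4i2 was 1.53 ± 0.519 against 1.29 ± 0.253 and Notch3 26.6 ± 4.04 against 33.8 ± 9.26 there, and these differences were not tested. Of the 42 lower genes the difference passed for 4, and 39 were below 0 at 7 days too, with a median of −0.46 against −3.43. These 42 were likewise chosen by their 15-hour values. For Alb the difference was 3.30 (SE 0.77, adjusted p = 0.0806).

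**Figure D5:**
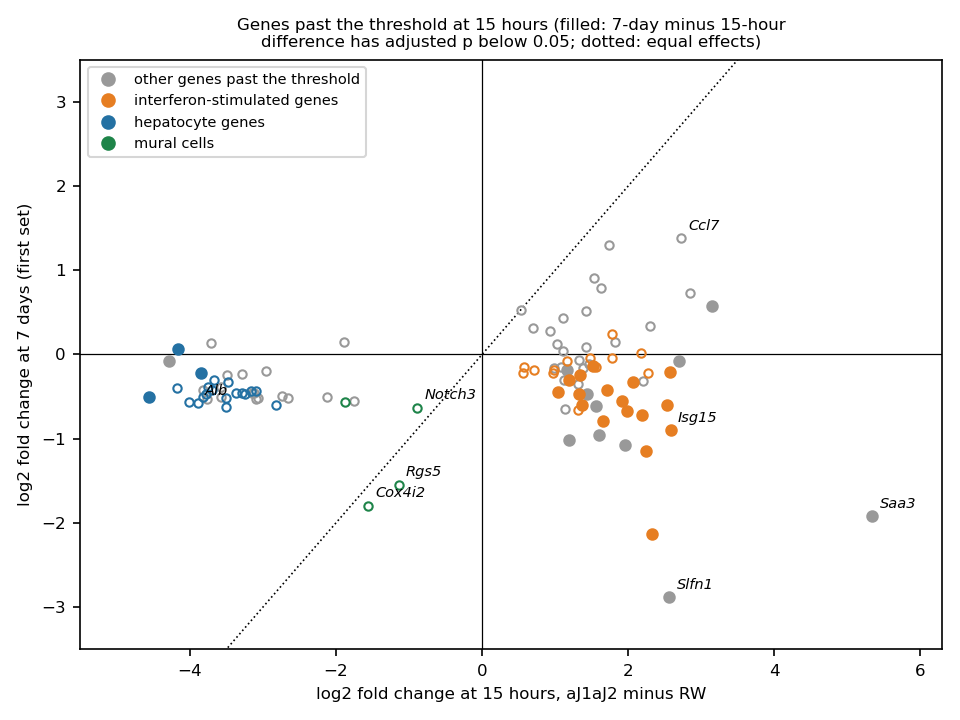
Log2 fold change of aJ1aJ2 against RW at 15 hours (x axis) and at 7 days in the first set (y axis) for the 106 genes past the threshold at 15 hours, filled where the difference between the times has an adjusted p below 0.05, with a dotted line of equal effects. Interferon genes lie right of 0, with a list median of −0.28 at 7 days, hepatocyte genes at a list median of −0.46 at 7 days, and Rgs5, Notch3 and Cox4i2 close to the dotted line.

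Values after receptor blockade (aN1aN2) at 15 hours stand beside these with 2 limits. They share the RW libraries with the comparison above, and their libraries come from another processing block, so that treatment and block cannot be told apart. Against the same RW libraries, Isg15 had a log2 fold change of 2.18 (adjusted p = 0.00402), Irf7 of 2.24 (adjusted p = 0.00463) and Saa3 of 2.90 (adjusted p = 0.0340). Rgs5 had one of −0.22 (adjusted p = 0.568) and Cox4i2 one of −0.18 (adjusted p = 0.837). Alb was at −10.71 (adjusted p = 5.28e-05), where aN1aN2 had 8 counts in all.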

How the data were processed

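Thyroid RNA in 10 libraries (5 RW, 5 aJ1aJ2) was sequenced as 50-base single reads. The authors deposited raw counts per gene and FPKM values. GSNAP and limma are named per the submitters' processing notes. Not given in the sources used here are their roles, the genome build, the annotation, the gene counter and the use of strand. Symbols came from GENCODE M21 (52403 of 52636 genes).

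Counts were tested with edgeR 4.0.16 (R 4.3.3), using TMM scaling, filterByExpr (minimum count 10, minimum total 15) and the robust quasi-likelihood test, two-sided. P-values were adjusted by Benjamini-Hochberg over all genes tested, with a threshold of 0.05. The common biological coefficient of variation was 0.447. The time difference was an interaction in 20 libraries. Alternatives used DESeq2 1.42.0, limma 3.58.1, other filters and other library sets. The script was tested on simulated data. Library pairs within a group differed beyond sampling noise (lowest chi-square per degree of freedom 23.6 of 20 pairs).

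In the deposited FPKM, the library factor followed the size factor within 0.763% (coefficient of variation) over the 10 libraries and 0.802% over the 20, but 9.45% once aN1aN2 was added, so aN1aN2 is called another processing block. The length behind the deposited FPKM (CPM over FPKM) stayed within 5% of a fixed multiple of the gene span with introns for 90.2% of 18480 genes, and of the merged exon length for 3.3%. FPKM was therefore not used to compare genes, and its pseudocounts weigh most on genes with long introns. It served as an alternative for each gene between libraries.

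The 10 libraries and the gene lists were chosen with earlier results of these data known. Named genes were the 12 higher and 12 lower genes with the smallest p, mean CPM of at least 1 and no overlap, list members past the threshold, the Notch and main thyroid genes, and the 2 smallest p of each other list. Further list members with values were chosen after their values were seen. Values of a few single genes are not reported here, although counts over lists include them.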

Additional observations from a re-analysis of the deposited data

Results flagged for a closer look

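In 9 of 182 groups of 5 libraries checked, 1 library stood apart from the other 4, and chance gives about 1 in 20. The liver genes Gc and Apoa1 were highest in aJ1aJ2 replicate 5, at 1.07 CPM (others 0.401 to 0.494) and 1.73 CPM (others 0.308 to 0.715). The Notch readout Nrarp was highest in the same library, at 1.68 CPM (others 0.315 to 0.684). In aJ1aJ2 replicate 3, a muscle-rich library, the muscle gene Ckm stood at 4278 CPM (others 331 to 1170) and the thyroid factor Pax8 was lowest at 229 CPM (others 475 to 535). In RW replicate 2, the haemoglobin gene Hba-a1 stood at 69.6 CPM (others 8.21 to 20.6) and the T cell gene Cd3e at 4.38 CPM (others 0.540 to 0.719). H2-T23 was highest in RW replicate 1 at 35.2 CPM (others 23.1 to 26.4), and Igtp lowest in RW replicate 4 at 12.1 CPM (others 16.1 to 17.5).

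The effect at 7 days minus that at 15 hours passed the threshold for 22 of the genes checked, each a log2 value from edgeR's interaction test. Many of the genes checked were chosen by their 15-hour values, which also enter the difference. Among interferon-stimulated genes it was −4.48 for Oas3, −3.49 for Isg15, −3.40 for Zbp1, −3.15 for Ifit1, −2.93 for Oasl2 and −2.80 for Irf7. Further values were −2.68 for Usp18, −2.49 for Ifi44, −2.46 for Rtp4, −2.41 for Oasl1, −2.15 for Bst2 and −1.98 for Mx2. The smallest were −1.80 for Xaf1, −1.67 for Oas2, −1.61 for Dhx58 and −1.50 for Trim30a. Outside that list it was −7.26 for Saa3, −5.46 for Slfn1 and −2.79 for Ms4a4c. For the liver genes Mup17, Fgb and Mup11 it was 4.21, 4.06 and 3.61.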

How the results depend on the processing

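Against 106 genes at 15 hours, DESeq2 gave 265, limma-voom 62, limma-voom with library quality weights 176, and 1 fit of all 10 groups 162. The RW and aJ1aJ2 libraries alone gave 48 (16 higher, 32 lower). On the FPKM scale, log2(FPKM + 1) gave 18, and log2(FPKM + 0.1) over 8458 genes with at least 1 FPKM in 5 libraries gave 17. Leaving out 1 library gave 35 to 127 genes, and leaving out the 6 muscle-rich libraries, an alternative added after the data were seen, gave 9. Other size factors, no count filter, log2(FPKM + 0.1) and a muscle covariate gave 96 to 144. For the difference between 7 days and 15 hours, against 58 genes, no count filter gave 38, DESeq2 378 and all 10 groups in 1 fit 26, and leaving out 1 library gave 6 to 146. Of 1834 values of the 67 named genes past the threshold, none changed sign and 569 lost the threshold. These fits reuse the libraries that chose the genes. The causes were not tested.

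With the replicate number as a block, edgeR gave 0 genes at 15 hours (723 at an unadjusted p below 0.05, smallest adjusted p = 0.320) and 0 for the difference between times (1359 at an unadjusted p below 0.05). Deviations of same-numbered libraries from their group means had correlations of 0.48, −0.31, −0.28, 0.07 and −0.38 for numbers 1 to 5. The numbers were not taken as a pairing in the main fit. These 5 values cannot exclude one, because genes of neighbouring tissues, which varied widely between libraries, enter them.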

Other observations

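Adipocyte genes were above 0 for 8 of 9 genes (median log2 fold change 0.47, and 0.54 without the muscle-rich libraries), with none past the threshold. Ucp1, the heat-producing carrier of brown fat, stood at 30.8, 119.8, 24.4, 29.6 and 69.8 CPM in RW and 104, 53.4, 202, 189 and 132 CPM in aJ1aJ2, which overlapped (1.31, adjusted p = 0.666). Fibroblast genes were below 0 for 12 of 12 (median −0.32), against 56.1% of all genes tested, with none past the threshold. The collagen list was below 0 for 20 of 22 (median −0.28), again with none. Without the muscle-rich libraries the collagen median was −0.12, with 7 of 22 above 0.

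Among immediate early genes, Nr4a3, an orphan nuclear receptor, stood at 6.37, 5.07, 5.31, 4.02 and 7.14 CPM in RW and 7.15, 2.26, 9.03, 32.2 and 47.8 CPM in aJ1aJ2. It was high in aJ1aJ2 replicates 4 and 5 and within or near the RW range in the other 3 (1.82, adjusted p = 0.582). Genes of C cells, the calcitonin cells of the thyroid, were above 0 for 8 of 8 (median 0.32, and 0.18 without the muscle-rich libraries), with none past the threshold. Ret and Chgb stood at 366 and 178 CPM in aJ1aJ2 replicate 3, both highest in that library. Respiratory chain subunits encoded in the nucleus had a median of −0.20 (69 of 75 below 0), which was 0.08 without the muscle-rich libraries. Proliferation genes had a median of −0.69, −0.33 without RW replicate 2 and −0.23 without the muscle-rich libraries. Mki67 stood at 4.14, 21.0, 15.6, 4.78 and 3.98 CPM in RW and 3.36, 4.82, 2.47, 3.13 and 2.51 CPM in aJ1aJ2, high in RW replicates 2 and 3, so the groups overlapped.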
